A study of Mus musculus with 84 samples.

Results

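The genes described here are 38 Hox genes, chosen by name as rows of a count table of 50686 mouse genes. Hox genes encode homeodomain transcription factors and lie in chromosomal clusters named A to D. Within a cluster, the gene order follows the order in which the genes are switched on along the head-to-tail axis of the embryo, so that genes with low numbers reach farther forward in the hindbrain than genes with high numbers. Genes with the same number in different clusters are paralogues, and the combination that a cell keeps is often read as a record of the body level it came from. The vagal sensory ganglia join the nodose ganglion, formed from epibranchial placodes, and the jugular ganglion, formed from neural crest. Prdm12 is a transcriptional regulator of the neural crest-derived pain-sensing lineage.

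The samples are 84 single vagal sensory neurons of C57BL/6 mice. Each was picked because it carried the retrograde lipophilic dye DiI (2%) taken up from the airways, and all 84 belong to 1 labelled group with no treatment, genotype or age named. Retrograde labelling marks only neurons whose endings met the dye, and no label names the animal that gave a neuron. Neurons are therefore not replicates of a condition, and no p-value was computed: shares are given with exact (Clopper-Pearson) 95% intervals, which cover counting error only. A share of 0 is given instead with the limit that 3 counts set, 3 divided by the number of neurons. A difference in share between sets of neurons is named when it reached 40 percentage points.

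Total counts ran from 576966 to 20668832 per neuron, and the 72 neurons with 5000000 or more were kept. Levels are CPM, counts scaled to a library total of 1000000. Detection means a level of at least 10 CPM, or 67.3 counts in the shallowest neuron kept. In 7 kept neurons Prdm12 reached 10 CPM, from 22.04 to 87.01 CPM, and the nearest neuron outside the threshold had 9.13 CPM. The remaining 65 are called other neurons. They differed from the Prdm12 neurons in the number of genes detected, with a median of 4870 against 8091. Differences in Hox share were therefore also computed against the 32 other neurons that had 5000 or more genes (median 7851.5). All 10 pan-neuronal markers were detected in 50% or more of the kept neurons. Summed over 7 satellite glia markers, the median level was 294.7 CPM in Prdm12 neurons (92.9 to 2418) and 1440 CPM in other neurons (9.01 to 56618).

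The promoters of 4 Hox genes are shown first, as the 250 bases before the annotated start, 5′ to 3′ on the gene's strand, from RefSeq on GRCm38.p6. The promoter source had no entry for Hoxb5 or Hoxb6. Hoxb4 stands for the HoxB genes of the other neurons, Hoxd1 and Hoxd8 for the HoxD genes of the Prdm12 neurons, and Hoxa2 for the HoxA gene detected in both sets. Capitals mark a match to AGGTCA, a short core motif of many nuclear receptors, among them the retinoic acid receptors, or to TGATNNAT, a form of the Pbx-Hox site, on either strand.
Hoxb4, chr11:96318017-96318266, plus strand: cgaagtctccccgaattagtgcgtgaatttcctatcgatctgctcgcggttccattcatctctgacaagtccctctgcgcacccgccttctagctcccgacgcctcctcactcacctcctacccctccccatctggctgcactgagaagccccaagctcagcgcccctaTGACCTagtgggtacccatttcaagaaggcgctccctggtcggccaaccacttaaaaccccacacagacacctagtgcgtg
Hoxd1, chr2:74762730-74762979, plus strand: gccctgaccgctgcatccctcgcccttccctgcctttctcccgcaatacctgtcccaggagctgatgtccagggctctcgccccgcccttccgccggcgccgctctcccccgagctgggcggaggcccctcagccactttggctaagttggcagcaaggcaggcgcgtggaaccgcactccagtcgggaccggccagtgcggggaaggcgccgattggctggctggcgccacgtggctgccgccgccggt
Hoxd8, chr2:74704365-74704614, plus strand: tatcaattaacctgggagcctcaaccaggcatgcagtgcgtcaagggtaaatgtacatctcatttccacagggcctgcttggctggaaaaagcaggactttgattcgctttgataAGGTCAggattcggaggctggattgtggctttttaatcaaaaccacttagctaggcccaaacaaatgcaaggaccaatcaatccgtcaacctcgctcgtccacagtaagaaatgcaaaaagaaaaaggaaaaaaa
Hoxa2, chr6:52164832-52165081, minus strand: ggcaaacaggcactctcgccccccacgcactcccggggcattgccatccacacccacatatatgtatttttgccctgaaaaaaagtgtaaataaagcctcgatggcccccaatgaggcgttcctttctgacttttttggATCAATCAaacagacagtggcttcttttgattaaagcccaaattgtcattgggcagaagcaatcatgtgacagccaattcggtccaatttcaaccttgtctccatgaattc

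Hoxb4 and Hoxd8 each held 1 AGGTCA match, Hoxa2 held 1 TGATNNAT match, and Hoxd1 held neither in this window. Over windows of 300 bases (250 before to 50 after the start), AGGTCA was present in 16.3% of 32851 promoters and in 7 of 24 Hox promoters, and TGATNNAT in 8.85% and in 4 of 24. TATAAA, the TATA box, was present in 13.6% and in 4 of 24. The 24 windows belong to 22 of the 38 genes. In these windows Hoxd1 had 29 CpG dinucleotides, Hoxb4 had 14, Hoxa2 had 9 and Hoxd8 had 6. The median was 14.5 over the 24 Hox promoters and 7 over all promoters. A match describes the letters only.

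The Hox genes detected in the most airway vagal neurons were Hoxb5, Hoxb4 and Hoxb6, from the middle of the HoxB cluster. Of the 38 genes, 11 were detected in 1 or more kept neurons, 19 more had counts but never reached that level, and 8 had no count in any neuron. Of all 50686 genes, 31.7% were detected in 1 or more kept neurons, so 11 of 38 is near the share of all genes. Of the 11 detected Hox genes, Hoxb5 and Hoxb4 were detected in 50% or more of the 72 neurons, beside 34% of the 16068 detected genes of any kind. A neuron had a median of 2 Hox genes, with a range from 0 to 5.

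**Figure D1:**
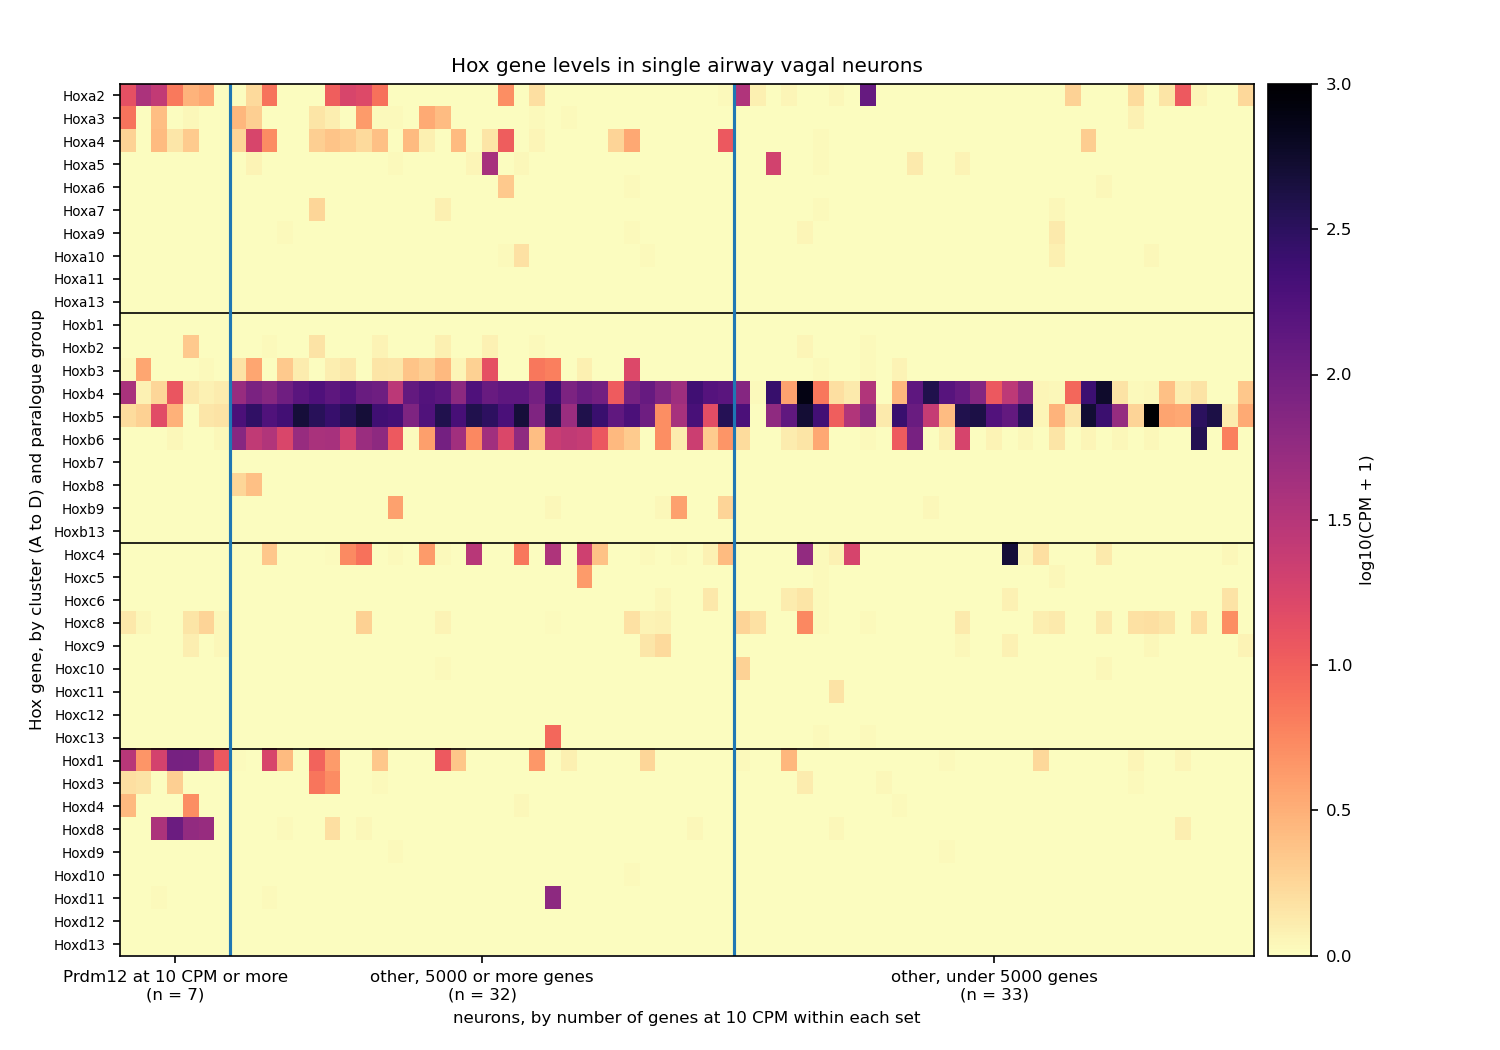
Level of each of the 38 Hox genes (rows, by cluster and paralogue group) in each of the 72 kept neurons (columns), as log10(CPM + 1) on a colour scale. Columns are set apart as 7 Prdm12 neurons, 32 other neurons with 5000 or more genes at 10 CPM and 33 with fewer, each ordered by that number of genes; Hoxb4, Hoxb5 and Hoxb6 form the dark band in the other neurons, and Hoxd1 and Hoxd8 the dark patch in the Prdm12 neurons.

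Hoxb5, a group 5 gene known from enteric and vagal neural crest, was the most widely detected, in 53 of 72 neurons (73.6%, 61.9 to 83.3%). Its lowest, median and highest levels were 0, 171.8 and 1048 CPM, the highest in neuron AM251. Hoxb4, a group 4 gene whose forward limit lies in the caudal hindbrain, was detected in 47 of 72 (65.3%, 53.1 to 76.1%), with a median of 68.6 CPM and a maximum of 767.1 CPM in neuron AM230. Hoxb6, a group 6 gene, was detected in 25 of 72 (34.7%, 23.9 to 46.9%), with a median of 0.54 CPM and a maximum of 366.9 CPM in neuron AM288. All these maxima fell in neurons with under 5000 genes at 10 CPM (AM251 1772, AM230 4165 and AM288 1289). The 3 genes lie side by side on chromosome 11 (GRCm38): Hoxb6 at 96292476 to 96301569, Hoxb5 at 96303336 to 96306121 and Hoxb4 at 96318267 to 96321638, a span of 29.2 kb. None shares exon bases with another annotated gene, apart from 3.59% of the exon bases of Hoxb5 shared with the opposite-strand noncoding gene Hoxb5os.

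The band had sharp edges in the cluster. Hoxb7, the next gene on one side with a gap of 2313 bases to Hoxb6, had no count in any neuron. Hoxb3, a group 3 gene that starts 1687 bases after Hoxb4, had a count in 24 neurons but reached 10 CPM in only 2, AM273 at 15.4 CPM and AM006 at 12.4 CPM. For Hoxb3, 52.9% of the exon bases overlap a gene on the opposite strand, and for Hoxb2 27.3% do. Whether the counting used strand is not given in the sources used here, so the counts of Hoxb3 and Hoxb2 are uncertain. Farther out, Hoxb2 reached at most 1.17 CPM, Hoxb8 1.45 CPM and Hoxb9 2.91 CPM, and Hoxb1 and Hoxb13 had no count.

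Among the 32 other neurons with 5000 or more genes, every neuron had at least 1 of the 3 HoxB genes (32 of 32, 89.1 to 100%). Per kilobase of merged exon, the median level there was 78.7 CPM for Hoxb5, 44.5 CPM for Hoxb4 and 10.3 CPM for Hoxb6. The interquartile ranges of Hoxb5 (58.6 to 125 CPM per kilobase) and Hoxb4 (32.6 to 57.5) did not overlap, and that of Hoxb6 (1.78 to 20.2) lay below both. Hoxb4 was detected in 31 of these 32 neurons (lowest 9.77 CPM, median 114.3, highest 253.8), Hoxb5 in 31 (4.09, 219.2 and 485.5 CPM) and Hoxb6 in 21 (0, 20.2 and 93.1 CPM). Hoxb4 and Hoxb5 had counts in every one of these neurons, and Hoxb6 was at 0 in the lowest.

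Most neurons with 1 of these genes had another. Among the 65 other neurons, 23 had all 3 genes, 20 had Hoxb4 with Hoxb5, 2 had Hoxb5 with Hoxb6, 7 had Hoxb5 alone, 2 had Hoxb4 alone and 11 had none. All 25 neurons with Hoxb6 also had Hoxb5, which 52 of the 65 had, and 23 of the 25 had Hoxb4, which 45 of the 65 had. In the 32 neurons with 5000 or more genes the counts were 21 with all 3, 9 with Hoxb4 and Hoxb5, and 1 each with Hoxb4 alone and Hoxb5 alone. Over these 32 neurons the Spearman correlation of levels was 0.61 between Hoxb5 and Hoxb6, 0.45 between Hoxb4 and Hoxb5 and 0.07 between Hoxb4 and Hoxb6; values from the same neuron share its library and depth, and no test applies.

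Detection of the HoxB genes moved with the number of genes detected in a neuron. Among other neurons with under 3000 genes at 10 CPM, Hoxb5 was detected in 6 of 13, Hoxb4 in 2 and Hoxb6 in 1. From 3000 to under 5000 genes the counts were 15, 12 and 3 of 20, and from 5000 to under 7000 genes 7, 7 and 1 of 8. With 7000 or more genes, Hoxb5 and Hoxb4 were detected in 24 of 24 and Hoxb6 in 20. Hoxb6 detection changed most between the last 2 of these ranges. Within the 32 neurons with 5000 or more genes its level still had a Spearman correlation of 0.58 with the number of genes detected, against 0.34 for Hoxb5 and -0.04 for Hoxb4. With the satellite glia sum the correlations were 0.12, 0.24 and 0.07. The part of neuron complexity in the Hoxb6 pattern was not tested.

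**Figure D2:**
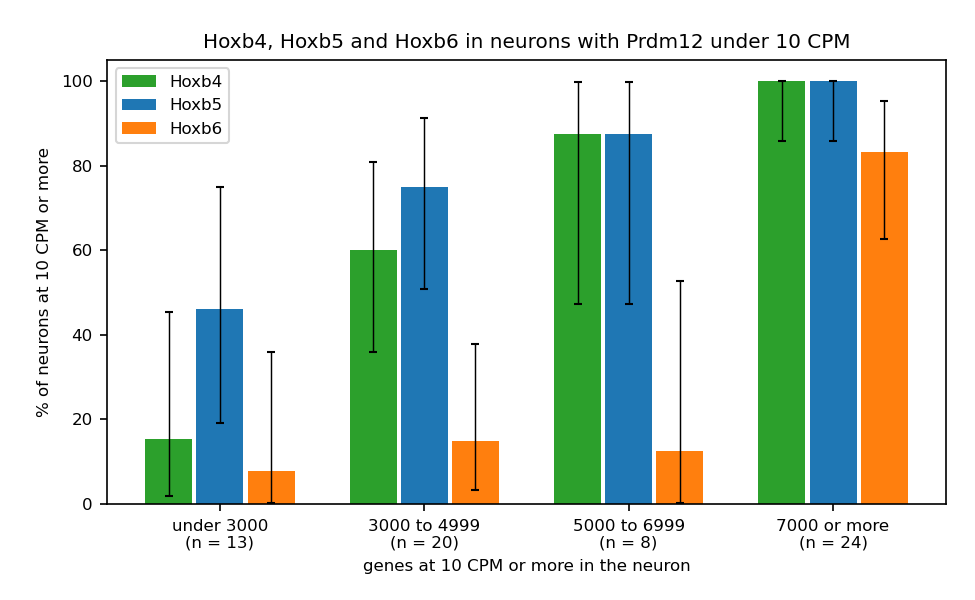
Share of other neurons (Prdm12 under 10 CPM) with Hoxb4, Hoxb5 and Hoxb6 at 10 CPM or more, in percent, by the number of genes at 10 CPM in the neuron; lines are exact 95% binomial intervals. Hoxb4 and Hoxb5 reach 24 of 24 neurons in the last range, and Hoxb6 goes from 1 of 8 to 20 of 24 between the last 2 ranges.

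In the Prdm12 neurons the Hox genes detected most often were Hoxd1 and Hoxd8, of the HoxD cluster, and genes of clusters A and B were detected in 3 of 7 each. Hoxd1, a group 1 gene known in mouse for its part in pain-sensing sensory neurons, was detected in 6 of 7 Prdm12 neurons (85.7%, 42.1 to 99.6%) and in 2 of 65 other neurons (3.08%, 0.37 to 10.7%). Hoxd8, a group 8 gene, was detected in 4 of 7 (57.1%, 18.4 to 90.1%) and in 0 of 65, which allows a share of up to 4.62%. In the other direction, Hoxb5 was detected in 1 of 7 Prdm12 neurons (14.3%, 0.36 to 57.9%) against 52 of 65 (80%, 68.2 to 88.9%), and Hoxb4 in 2 of 7 (28.6%, 3.67 to 70.96%) against 45 of 65 (69.2%, 56.5 to 80.1%). Hoxb6 was detected in 0 of 7, which allows a share of up to 42.9%, against 25 of 65 (38.5%, 26.7 to 51.4%).

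Of the 11 Hox genes compared with all 65 other neurons, 2 were higher by 40 points or more in the Prdm12 neurons (Hoxd1 by 82.6 and Hoxd8 by 57.1 points) and 2 were lower (Hoxb5 at -65.7 and Hoxb4 at -40.7 points). Among all 16068 genes compared, 13.3% were higher and 0.361% lower by that rule (13.7% in either direction). The count of higher Hox genes is thus near the share of all genes, and the count of lower ones is above it. The median difference was -3.08 points over the 11 Hox genes and 12.3 points over all genes. Against the 32 other neurons with 5000 or more genes, where 2.14% of 14721 genes were higher and 1.73% lower (3.87% in either direction), the same rule gave 2 higher and 3 lower of 11. There the differences were 79.5 points for Hoxd1, 57.1 for Hoxd8, -82.6 for Hoxb5, -68.3 for Hoxb4 and -65.6 for Hoxb6, with a median of -6.25 points over the 11 genes and 0 over all genes.

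The call on Hoxb4 against all 65 neurons sat at the edge of the rule. Leaving out Prdm12 neuron AM011, AM228, AM296, AM303 or AM304 brought it to -35.9 points, and leaving out AM013 or AM237, the only Prdm12 neurons with Hoxb4 at 10 CPM, brought it to -52.6. All 7 Prdm12 neurons had at least 1 Hoxb4 count, so at a threshold of 1 count the difference was 4.62 points (100% against 95.4%).

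**Figure D3:**
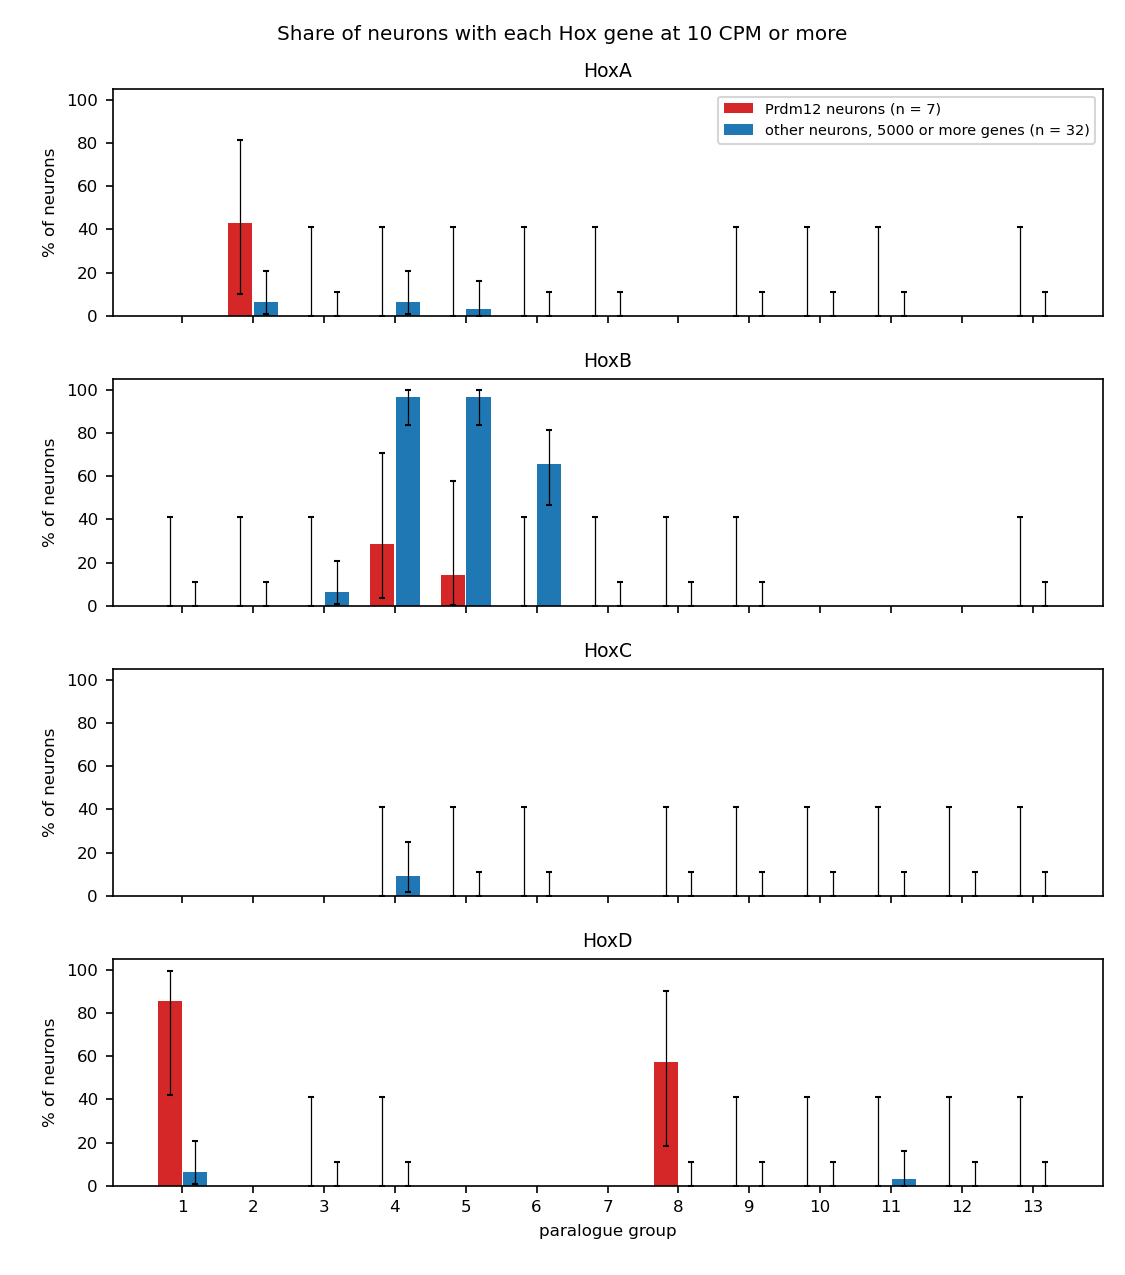
Share of neurons, in percent, with each Hox gene at 10 CPM or more, by cluster (panels) and paralogue group (horizontal axis), in 7 Prdm12 neurons and 32 other neurons with 5000 or more genes; bars are shares and lines are exact 95% binomial intervals, and positions with neither hold no gene that was described. The Prdm12 bars are higher at Hoxd1 (6 of 7) and Hoxd8 (4 of 7), and the other bars at Hoxb4 (31 of 32), Hoxb5 (31 of 32) and Hoxb6 (21 of 32).

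Taken neuron by neuron, Hoxd1 stood at 89.8 CPM in AM013, 87.7 in AM228, 38.9 in AM303, 29.8 in AM237, 18.4 in AM011, 10.6 in AM304 and 3.56 in AM296. The highest levels in the other neurons were 16.5 CPM in AM059, 10.2 in AM239 and 8.55 in AM019. Of the Prdm12 neurons, 5 lay above all other neurons, and AM304 and AM296 lay within their range. Hoxd8 stood at 110.6 CPM in AM013, 54.98 in AM228, 51.4 in AM303 and 35.5 in AM011, and at 0 in AM237, AM296 and AM304. Its highest level in any other neuron was 0.55 CPM, so the 4 Prdm12 neurons with Hoxd8 did not overlap with the other neurons and the 3 without it did.

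In the same 7 neurons Hoxb5 was 13.6 CPM in AM011 and between 0 and 2.03 CPM in the rest. Hoxb4 was 38.1 CPM in AM237, 11.3 in AM013 and between 0.19 and 0.77 in the rest. Hoxb6 did not exceed 0.11 CPM in any of them. The median of Hoxb5 was 0.63 CPM in Prdm12 neurons and 219.2 CPM in the 32 other neurons with 5000 or more genes, and for Hoxb4 the medians were 0.36 and 114.3 CPM. Per kilobase of exon, the median level in Prdm12 neurons was 15.99 CPM for Hoxd1, 12.9 for Hoxd8 and 3.34 for Hoxa2, below those of Hoxb5 and Hoxb4 in the 32 other neurons.

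**Figure D4:**
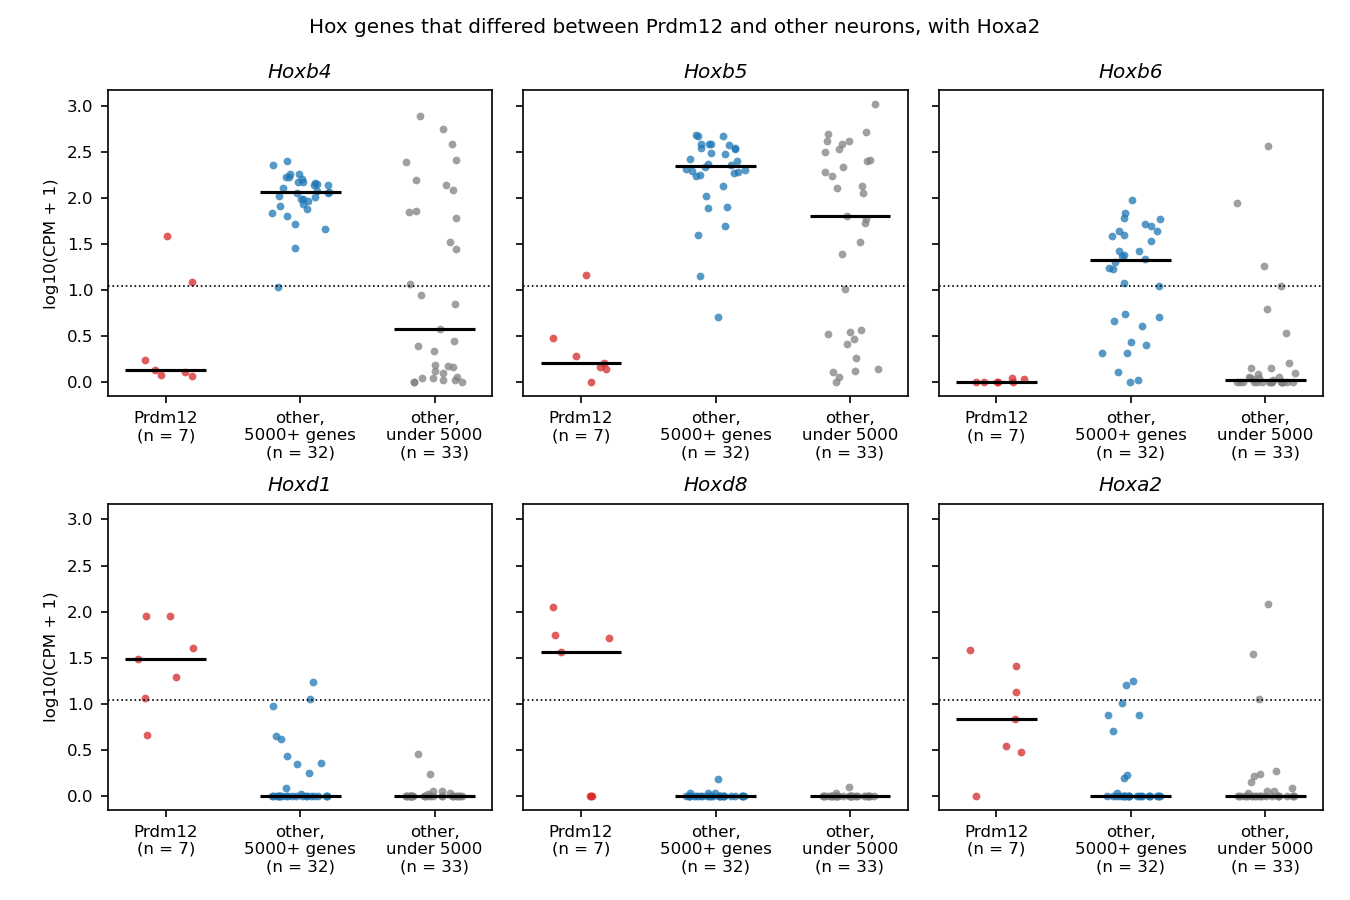
Levels of Hoxb4, Hoxb5, Hoxb6, Hoxd1, Hoxd8 and Hoxa2 in single neurons, as log10(CPM + 1), in 7 Prdm12 neurons, 32 other neurons with 5000 or more genes and 33 with fewer. Each point is a neuron (horizontal scatter has no meaning), the bar is the median and the dotted line is 10 CPM. Hoxd8 is above the line in 4 Prdm12 neurons and in no other neuron, and Hoxb5 is above it in 1 Prdm12 neuron and in 31 of the 32.

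The sets differed in which of the HoxB and HoxD genes a neuron combined. Over all 72 neurons, 5 of the 8 with Hoxd1 or Hoxd8 also had at least 1 of Hoxb4, Hoxb5 and Hoxb6, which 57 of the 72 had. Of the 65 other neurons, 52 had at least 1 of Hoxb4, Hoxb5 and Hoxb6 without Hoxd1 or Hoxd8, 2 had both kinds (AM059 and AM239, each with all 3 HoxB genes and Hoxd1) and 11 had neither. Of the 32 with 5000 or more genes, 30 had the HoxB kind alone, 2 had both kinds and 0 had neither. Of the 7 Prdm12 neurons, 3 had Hoxd1 or Hoxd8 without a HoxB gene (AM228, AM303 and AM304), 3 had both kinds (AM011, AM013 and AM237) and 1 had neither (AM296). The 3 other neurons with the highest Prdm12 levels were of the HoxB kind. Hoxb5 stood at 32.7 CPM in AM086 (Prdm12 9.13 CPM), 214.4 CPM in AM072 (Prdm12 3.41 CPM) and 384.8 CPM in AM076 (Prdm12 2.40 CPM). Only AM086 was near the threshold, and all 3 had under 5000 genes at 10 CPM (3793, 4092 and 3286).

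Neuron identifiers run in separate blocks, which the labels do not name as batches, and the directions were the same within both blocks that held Prdm12 neurons. Block 1 had 2 Prdm12 and 14 other neurons, and Hoxb5 was detected in 1 of 2 against 14 of 14, Hoxb4 in 1 of 2 against 12 of 14, Hoxd1 in 2 of 2 against 0 of 14 and Hoxd8 in 2 of 2 against 0 of 14. Block 3 had 5 and 40, and Hoxb5 was detected in 0 of 5 against 28 of 40, Hoxb4 in 1 of 5 against 25 of 40, Hoxd1 in 4 of 5 against 1 of 40 and Hoxd8 in 2 of 5 against 0 of 40. Block 2 had no Prdm12 neuron and 11 others, with Hoxb5 in 10 of 11 and Hoxd1 in 1 of 11. AM086, AM072 and AM076 were in block 2. Among the 19 other neurons with satellite glia sums under 300 CPM, Hoxb5 was detected in 17, Hoxb4 in 14, Hoxb6 in 8, and Hoxd1 and Hoxd8 in 0 of 19.

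Hoxd8 and Hoxd1 do not adjoin: on chromosome 2 (GRCm38), Hoxd8 lies at 74704615 to 74707933 and Hoxd1 at 74762980 to 74765142. Neither shares exon bases with another annotated gene. Hoxd4 and Hoxd3, the members annotated between them, stayed under 10 CPM in every neuron, and 52.3% and 62.8% of their exon bases are shared with other genes, so their counts are uncertain. Hoxd4 reached 4.13 CPM in AM228 and 1.75 CPM in AM237, both Prdm12 neurons, and at most 0.08 CPM in other neurons. Hoxd3 was highest in other neurons, at 6.19 CPM in AM019, and reached 0.99 CPM in a Prdm12 neuron. The noncoding HoxD gene Haglr was detected in 4 of 7 Prdm12 neurons (37.99 CPM in AM296, 33.9 in AM237, 30.5 in AM228 and 27.4 in AM013) and in 4 of 65 others, of which the highest had 18.5 CPM; part of it overlaps Hoxd3. AM296, the Prdm12 neuron without a detected HoxD coding gene, had the highest Haglr level.

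Hoxa2, a group 2 gene whose limit lies far forward in the hindbrain, was detected in 3 of 7 Prdm12 neurons (AM296 at 36.95 CPM, AM011 at 24.97 and AM237 at 12.4) and in 5 of 65 others, with the highest level in AM075 at 119.8 CPM. AM075 had 3768 genes at 10 CPM, and the highest Hoxa2 level in the 32 other neurons with 5000 or more genes was 16.9 CPM. The Hoxa2 difference of 35.2 points did not reach the rule, and it was 71.9 points at a threshold of 1 CPM and -1.54 points at 50 CPM. Of its exon bases, 15.04% are shared with a same-strand gene, Gm28308, which had no count in any kept neuron. The remaining HoxA genes were sparse. Hoxa4 was detected in AM069 (16.5 CPM) and AM219 (10.5 CPM), Hoxa5 in AM006 (38.5 CPM) and AM258 (18.8 CPM), and Hoxa3 reached at most 6.37 CPM, in Prdm12 neuron AM237. Of Hoxa6, Hoxa7, Hoxa9 and Hoxa10, Hoxa6 reached the most, at 1.17 CPM, and Hoxa11 and Hoxa13 had no count.

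HoxC genes were detected in other neurons only through Hoxc4, the group 4 paralogue of Hoxb4, and in 0 of 7 Prdm12 neurons, which allows up to 42.9%. Hoxc4 was detected in 6 of 65: 488.3 CPM in AM080, 55.1 in AM230, 35.1 in AM018, 29.3 in AM210, 19.7 in AM253 and 17.4 in AM086. AM080 thus carried a level far above the other 5. Hoxc8 had a count in 25 neurons but at most 4.53 CPM, and Hoxc13 reached 7.98 CPM in AM018. Hoxc5, Hoxc6, Hoxc9, Hoxc10 and Hoxc11 stayed at or under 3.25 CPM, and Hoxc12 had no count.

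The highest-numbered paralogue group detected in a neuron differed between the sets. Among the 65 other neurons it was group 5 in 27, group 6 in 24, group 4 in 2, group 2 in 1 and group 11 in 1, and 10 neurons had no Hox gene at 10 CPM. All 10 had under 5000 genes. In the 32 other neurons with 5000 or more genes it was group 6 in 20, group 5 in 10, and groups 4 and 11 in 1 each. Among the 7 Prdm12 neurons it was group 8 in 4 and groups 1, 2 and 4 in 1 each. The group 11 neuron was AM018, with Hoxd11 at 60.4 CPM; Hoxd11 had at most 1 count in any other kept neuron. AM018 also had all 3 HoxB genes and Hoxc4. Groups 7, 9, 10, 12 and 13 were detected in 0 of 72 neurons, which allows a share of up to 4.17%, and Hoxd9 and Hoxd10 had at most 1 count in a neuron while Hoxd12 and Hoxd13 had none.

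Genes that work with or on Hox genes were read from lists of their partners and regulators. TALE homeodomain proteins (Pbx, Meis and Pknox) bind DNA with Hox proteins. All 9 were detected, where 31.7% of all genes were, among them Pbx3 in 47 of 72 neurons. Against all 65 other neurons (13.3% of all genes higher) 3 of 9 were higher in Prdm12 neurons: Pknox2 (7 of 7 against 16 of 65), Pbx2 (7 of 7 against 30) and Meis2 (4 of 7 against 8), and none was lower. Against the 32 neurons with 5000 or more genes, 2.14% of all genes were higher. There Pknox2 (10 of 32) and Meis2 (5 of 32) stayed past 40 points and Pbx2 (25 of 32) did not. The median difference of the 9 was 23.7 points in the first comparison and 1.79 in the second, beside 12.3 and 0 over all genes.

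Retinoic acid, made from retinol by Rdh10 and the Aldh1a enzymes, sets Hox expression in the hindbrain through Rar and Rxr receptors. Of 16 genes of that pathway 14 were detected, where 31.7% of all genes were, most widely Rxrb in 34 of 72 neurons and Rdh10 in 26. Against all other neurons 2 of 14 were higher, near the 13.3% of all genes: Rxrg (4 of 7 against 9 of 65) and Rxrb (6 of 7 against 28). None was lower, and the median difference was 5.82 points. Against the 32 (2.14% of all genes higher), 1 of 13 was higher, Rxrg (5 of 32), with a median of -4.46 points. Polycomb proteins keep Hox genes silent and trithorax proteins keep them active. All 20 listed members were detected, led by Ash1l in 51 of 72, and Bmi1 and Men1 in 47 each. Against all other neurons 3 of 20 were higher, also near the share of all genes, among them Jarid2 (5 of 7 against 15 of 65) and Ezh1 (7 of 7 against 34), and the median difference was 22.4 points. Against the 32, 0 of 20 passed in either direction, beside 3.87% of all genes, with a median of -2.23 points.

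Of 11 upstream segment and caudal regulators, 4 were detected, near the 31.7% of all genes. The most widely detected were Gdf11, a TGF-beta family ligand that patterns the trunk, in 23 of 72, and Egr2, a hindbrain segment factor that Schwann cells also use, in 20. Gdf11 passed 40 points against all other neurons (5 of 7 against 18 of 65) and not against the 32 (16 of 32). Of 19 noncoding genes of the Hox clusters 16 were in the table and 4 were detected, also near that share, most widely Haglr in 8 of 72 neurons and Hoxb5os in 5. Haglr was past 40 points in both comparisons, and Hoxb5os had no count in any Prdm12 neuron. Over all genes, 13.3% were higher by 40 points against all other neurons and 2.14% against the 32.

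Of 7 ganglion markers, 4 passed 40 points in either comparison, 2 higher and 2 lower in Prdm12 neurons, and 1 of the higher ones is Prdm12 itself, which defines the sets. Over all genes, 13.3% were higher and 0.361% lower by that rule against all other neurons. Against the other neurons with 5000 or more genes, 2.14% were higher and 1.73% lower. The markers were chosen with earlier results of these data known. Prrxl1, a homeodomain factor of somatosensory lineages, was detected in 7 of 7 Prdm12 neurons and 22 of 65 others, P2rx2, an ATP-gated channel subunit, in 0 of 7 and 39 of 65, and Ntrk2, the receptor for BDNF, in 3 of 7 and 56 of 65. Runx1, a sensory lineage transcription factor, was detected in 5 of 7 and 45 of 65, Tac1, the substance P precursor, in 3 of 7 and 40 of 65, and Phox2a, a visceral sensory homeodomain factor, in 0 of 7 and 5 of 65, and these 3 did not pass against all other neurons. No pan-neuronal gene and no marker of satellite glia, Schwann cells, fibroblasts, endothelial cells or leukocytes passed 40 points in either comparison. Summed over 5 Schwann cell markers, levels ran from 488.1 to 797.9 CPM in Prdm12 neurons and from 1.89 to 10863 CPM in other neurons, and the myelin gene Mag had no count in any Prdm12 neuron. The fibroblast sum (6 markers) ran from 0.71 to 108.7 and from 0.22 to 972.1 CPM, the endothelial sum (4 markers) from 0 to 1.08 and from 0 to 189.4 CPM, and the leukocyte sum (5 markers) from 0 to 18.6 and from 0 to 348.3 CPM. Cldn5, Cdh5, Ptprc and C1qa had no count in any Prdm12 neuron. The part of RNA from such cells in the Hox differences was not tested, beyond the values for neurons with low satellite glia sums.

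Genes outside the clusters with the most similar pattern were ranked by Spearman correlation of CPM over the 38 kept neurons with 5000 or more genes, among 9419 genes. For Hoxb5 they were Akr1b3 (0.71), Pea15a (0.70), Aldoc (0.70), P2rx2 (0.67) and Nap1l4 (0.66). For Hoxd1 they were Dok4 (0.73), Cgnl1 (0.72), Rnf157 (0.70), Cpne6 (0.67) and Prrxl1 (0.67). All values come from the same 38 libraries, 6 of them Prdm12 neurons.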

How the data were processed

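Single DiI-traced mouse vagal neurons were sequenced in 76-base reads after mRNA amplification, per the labels' protocols. The authors deposited raw read counts per Ensembl gene, assigned with featureCounts per the submitters' processing notes; not given in the sources used here are its version, the aligner, the genome build, the annotation and the strand setting. Since molecular identifiers are not mentioned either, copies made by amplification may count more than once. GENCODE M21 (GRCm38) gave symbols for 50376 of 50686 identifiers, and coordinates and merged exon lengths. CPM was computed from each neuron's total count. Kept neurons had 5000000 or more counts (72 of 84), and 12 were left out of all comparisons. The labels give 1 group and name no animal, so shares were compared with no test and shares of 0 are given with the limit that 3 counts set. The members and lists were chosen with earlier results of these data known. The text names all 38 Hox genes, and in each other list the 2 most widely detected genes and up to 4 that differed most among those past 40 points; results that rest on withheld items are not reported here. It also names the 5 genes most correlated with the Hox gene of the largest difference in each direction. Alternatives covered the detection threshold, the depth filter, thinning, TMM scaling from edgeR 4.0.16 in R 4.3.3 (no edgeR test was run), identifier blocks (parted by gaps of more than 30), the Prdm12 threshold, the size rule and leaving out each Prdm12 neuron. Raising the Prdm12 threshold to 20 CPM kept the same 7 Prdm12 neurons. That run was the same comparison as leaving out neurons with Prdm12 between 1 and 10 CPM, so it did not vary the Prdm12 set. TMM scaling did change the sets, to 8 Prdm12 and 64 other neurons, with 2 Hox genes higher and 2 lower. The Hoxd1 difference was 50 points there. Other neurons with low satellite glia sums and detection per kilobase were added after seeing the data. Differences in share were checked on simulated Poisson counts, in which all neurons had the same mean profile apart from altered genes. The simulation left out the difference in number of genes detected between the real sets. It therefore cannot show how that difference acts on the shares. Python 3.11.15, numpy 2.4.6, pandas 2.3.3, scipy 1.17.1 and matplotlib 3.10.9 were used, with seed 1.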

Additional observations from a re-analysis of the deposited data

Results flagged for a closer look

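The 12 neurons with under 5000000 counts (576966 to 3892206) entered no comparison, and 9 of them had a Hox gene at 10 CPM or more with at least 3 counts. Hoxb5 was detected in 7 of 12, at up to 3853 CPM, and Hoxb4 in 3. Hoxa2 was detected in 2, Hoxc8 in 2, and Hoxb9, Hoxc5 and Hoxc9 in 1 each. Hoxb9, Hoxc5, Hoxc8 and Hoxc9 did not reach 10 CPM in any kept neuron, and their highest levels here were 13.4, 23, 13.7 and 15.1 CPM, from 52, 41, 22 and 27 counts. None of the 12 had Prdm12 at 10 CPM.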

How the results depend on the processing

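The number of Hox genes past the size rule (4 of 11 at 40 points) stayed between 3 and 6 under every alternative run. These runs include size rules of 30 points (6 genes) and 50 points (3 genes). The number was between 3 and 5 when a Prdm12 neuron was left out (leave-one-out). The 11 holds for detection at 10 CPM, and 30 Hox genes had at least 1 count in kept neurons. No share of all genes past the rule was computed for the alternatives, apart from other neurons with 5000 or more genes. The range therefore cannot show whether Hox genes passed more often than other genes under the remaining alternatives. The Hox genes called could change: at a threshold of 1 count 4 were higher and 1 lower, against 2 and 2 as reported. Over all 22 alternatives, leave-one-out included, Hoxd8 ranged from 40 to 100 points and passed in 22, Hoxd1 ranged from 28.6 (at 50 CPM) to 96.9 and Hoxb5 from -82.6 to -12.7 (at 1 count), each passing in 21. Of the 22, the run at a Prdm12 threshold of 20 CPM and the run without neurons between 1 and 10 CPM were the same comparison. Hoxb4 passed in 13 and was reversed at a threshold of 1 count, at 4.62 points; it was -33.8 with all 84 neurons, -39.9 without block 2 and -30 without block 3. Hoxb6 passed in 6 and Hoxa2 in 7. Hoxa2 was at 42.3 points without AM013, AM228, AM303 or AM304 and at 25.6 without AM011, AM237 or AM296. The median number of Hox genes per neuron was 6 at a threshold of 1 count (2 as reported) and 2 or 3 otherwise. The number of Hox genes in 50% or more of the neurons was 2 or 3 throughout. Causes of these changes were not tested. With 7 Prdm12 neurons, 1 neuron is 14.3 points, which limits every share. No paired analysis was possible because the labels give 1 group and no replicate numbers that pair neurons.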
